A study of Mus musculus with 9 samples.

Results

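The brain transcription factor genes Gata2, Gata3, Tal1, Lhx1, Lhx5, Lmx1b, Barhl2, Mab21l2 and Sox14 were examined in brain RNA from 9 mice. These 9 genes, of 20731 in the count table, were chosen by name with their measured difference between the CVST and the CVST+Ligation group in view, so that difference is described without a test. In each group 3 male C57BL/6J mice aged 8 to 10 weeks were sequenced on day 2 after cerebral venous sinus thrombosis (CVST), which had been induced in all 9 by ferric chloride on the superior sagittal sinus. The CVST group had thrombosis alone. The CVST+Ligation group also had its cervical lymph nodes tied off on both sides. The 4-PBA group had thrombosis and ligation and was given 4-phenylbutyric acid, an inhibitor of endoplasmic reticulum stress, at 100 mg/kg by intraperitoneal injection, according to the methods 30 minutes before modelling. The methods state that control mice received solvent, without saying which of the sequenced groups this covers, and the series text places the treatment after ligation. The labels give the tissue as brain and the series text as cortex, and mice without thrombosis were not analysed here.

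In the developing midbrain, GATA2 switches neuronal precursors to an inhibitory (GABA) fate, and GATA3 and TAL1 act beside or after it in the same lineages. TAL1 is a basic helix-loop-helix protein that binds E-box DNA with partners and works with GATA factors also in blood cell formation. LHX1, LHX5 and LMX1B are LIM homeodomain proteins. LMX1B is needed for the development of midbrain dopamine and hindbrain serotonin neurons. BARHL2 is a homeodomain protein of diencephalon, midbrain, hindbrain and spinal cord, SOX14 marks inhibitory neurons of thalamus and midbrain, and MAB21L2 is a protein needed in eye development that is also made in the midbrain. None of these factors is a typical product of the excitatory neurons of the cerebral cortex.

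In the GENCODE M21 annotation of the mouse genome build GRCm38, Gata2 lies at chr6:88193891-88207032 on the plus strand and Gata3 at chr2:9857078-9890034 on the minus strand. Tal1 lies at chr4:115056426-115071755 on the plus strand. Lhx1 lies at chr11:84518284-84525535 on the minus strand and its relative Lhx5 at chr5:120431699-120441223 on the plus strand. Lmx1b lies at chr2:33560965-33640511, Barhl2 at chr5:106452523-106458166, Mab21l2 at chr3:86545581-86548629 and Sox14 at chr9:99874106-99876170, all 4 on the minus strand. Mab21l2, a gene with a single exon, sits inside Lrba on the opposite strand. Lrba had 667 to 1471 counts in every library, and Mab21l2 had 0 counts in each CVST library, so reads of Lrba were not counted as Mab21l2 there. Other annotated transcripts also overlap Gata3, Lhx5 and Lmx1b, all but 1 of them on the opposite strand, and have no row of their own in the count table, so reads of those on the opposite strand cannot be told apart if counting ignored strand, and reads of the 1 on the strand of Gata3 cannot be told apart either way where exons overlap. The longest run of bases that a member shares with a transcript of a close relative was 12 to 29, against reads of 150 bases.

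Promoter sequence, taken as the 250 bases before each transcript start in RefSeq (GRCm38.p6), was at hand for 8 of the 9 genes in 10 windows. Because members of the GATA and TAL1 families recognise known DNA words, 4 of these windows are shown on the strand of the gene, 5′ to 3′, with matches to a GATA site (AGATAA or TGATAA) or an E-box (CAGNTG) in capitals, searched on both strands. They are the window of Gata3 at chr2:9878601-9878850, that before the more upstream start of Tal1 at chr4:115056176-115056425, that of Barhl2 at chr5:106458167-106458416 and that of Sox14 at chr9:99876171-99876420.
Gata3: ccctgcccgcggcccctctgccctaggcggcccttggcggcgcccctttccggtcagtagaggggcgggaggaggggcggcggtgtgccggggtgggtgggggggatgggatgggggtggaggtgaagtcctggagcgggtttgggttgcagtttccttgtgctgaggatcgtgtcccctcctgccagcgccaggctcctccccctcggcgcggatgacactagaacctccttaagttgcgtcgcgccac
Tal1: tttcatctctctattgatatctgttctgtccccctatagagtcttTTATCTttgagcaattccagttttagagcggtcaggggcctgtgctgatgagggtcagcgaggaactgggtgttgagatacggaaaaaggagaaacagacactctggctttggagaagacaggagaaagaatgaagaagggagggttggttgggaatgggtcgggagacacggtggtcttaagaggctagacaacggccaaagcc
Barhl2: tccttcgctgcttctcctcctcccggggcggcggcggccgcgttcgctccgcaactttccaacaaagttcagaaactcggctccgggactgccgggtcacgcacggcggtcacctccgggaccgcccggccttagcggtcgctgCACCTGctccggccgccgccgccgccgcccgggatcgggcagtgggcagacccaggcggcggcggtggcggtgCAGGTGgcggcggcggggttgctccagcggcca
Sox14: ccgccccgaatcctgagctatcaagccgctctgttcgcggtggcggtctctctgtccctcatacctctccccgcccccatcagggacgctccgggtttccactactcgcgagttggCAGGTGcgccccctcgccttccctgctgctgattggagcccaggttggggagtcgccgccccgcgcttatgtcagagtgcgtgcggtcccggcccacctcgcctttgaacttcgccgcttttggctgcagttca

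The Tal1 window held the single GATA site, read on the opposite strand and starting 205 bases before the start. It was the 1 window of 10 with this word, which occurred in 16.6% of 32851 mouse promoter windows of the same length. An E-box occurred in 2 of the 10, Barhl2 with 2 matches and Sox14 with 1, against 44.8% of all windows. The homeodomain core TAATTA was in 0 of the 10 (4.84% of all) and the TATA box TATAAA in 1, that of Mab21l2 (12.4% of all). The windows held 6 to 36 CG pairs, against a median of 6 over all windows, and their GC content was 46.8% to 74.8%, against a median of 52.4%. A match is a description of letters in this window and shows no binding.

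Libraries held 18100739 to 25091498 counts, so that 3 counts, taken as the floor of detection, correspond to a normalized abundance (CPM, the count scaled to a fixed library size) of 0.114 to 0.163. Levels below are CPM on library sizes scaled by the TMM method, with the SD over 3 mice. Replicate 2 of the CVST+Ligation group stands apart from its group. Over all genes tested its log2 CPM correlated with those of the other ligated mice with r of 0.946 and 0.947, while these correlated with each other with 0.982. It alone held many reads of Hox genes, which pattern hindbrain and spinal cord: 12 of 18 examined were above 3 counts, with 598 counts in all, against at most 2 genes and 21 counts in any other library. The comparisons of the 9 genes are therefore given with and without it.

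GATA factors were present at different baselines. Gata2 was the member with the most reads in the CVST group, at 1.44, 2.93 and 2.06 CPM in the 3 mice. It was at 2.44, 5.92 and 3.52 CPM in the CVST+Ligation group and 4.01, 3.2 and 3.96 in the 4-PBA group. The lowest ligated mouse lay below the highest CVST mouse, so these groups overlapped. Gata3 was close to absent in the CVST group, with 0, 0 and 1 counts. After ligation it had 110, 208 and 83 counts, or 4.54, 10.7 and 3.65 CPM. In the 4-PBA group it had 53, 14 and 77 counts, or 2.87, 0.589 and 2.93 CPM. Each ligated mouse was above each 4-PBA mouse for Gata3, and each of these above every CVST mouse. Tal1 lay low in the CVST group at 0.212, 0.488 and 0.163 CPM, from 5, 11 and 3 counts. It reached 1.61, 3.04 and 0.923 CPM in the CVST+Ligation group and 0.596, 0.967 and 0.8 CPM in the 4-PBA group, with no overlap between the CVST group and the other groups. In bulk tissue, fewer cells of a type and less RNA per cell cannot be told apart, and this holds for every level given here.

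The LIM homeodomain genes were at the floor in nearly all CVST libraries. Lhx1 had 0, 0 and 5 counts there, against 35, 302 and 42 after ligation and 55, 33 and 86 in the 4-PBA group. In CPM its ligated libraries were at 1.45, 15.6 and 1.85, so that replicate 2 lay 8.42 times above the next. Lhx5 had 0 counts in all 3 CVST libraries. It had 2.19, 8.39 and 1.89 CPM in the ligated libraries, from 53, 163 and 43 counts, and 2.22, 1.39 and 2.59 CPM in the 4-PBA libraries, from 41, 33 and 68. Apart from the high replicate 2, the ligated libraries of Lhx5 lay within the range of the 4-PBA libraries. Lmx1b had 0, 2 and 0 counts in the CVST group, 13, 45 and 12 in the CVST+Ligation group and 21, 10 and 32 in the 4-PBA group. In CPM these were at most 0.0887, then 0.537, 2.32 and 0.527, then 1.14, 0.421 and 1.22.

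Barhl2 and Mab21l2 depended most on replicate 2. Barhl2 was at 0.255, 0.0887 and 0.108 CPM in the CVST group, from 6, 2 and 2 counts. Its ligated libraries held 0.95, 13.6 and 1.01 CPM, and its 4-PBA libraries 4.28, 3.83 and 2.25 CPM. All 4-PBA mice were thus above the 2 lower ligated mice and below the third. Mab21l2 had 0 counts in every CVST library. It had 23, 268 and 17 counts after ligation, or 0.95, 13.8 and 0.747 CPM, and 26, 115 and 76 in the 4-PBA group, or 1.41, 4.84 and 2.9 CPM. The order of the mice was the same as for Barhl2 in this respect. Sox14 was the sparsest member, with 0, 2 and 0 counts in the CVST group, 24, 19 and 8 after ligation and 6, 2 and 21 in the 4-PBA group. Its 4-PBA replicate 2, at 0.0841 CPM, lay below the highest CVST mouse, at 0.0887 CPM, and both values are under the floor.

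**Figure D1:**
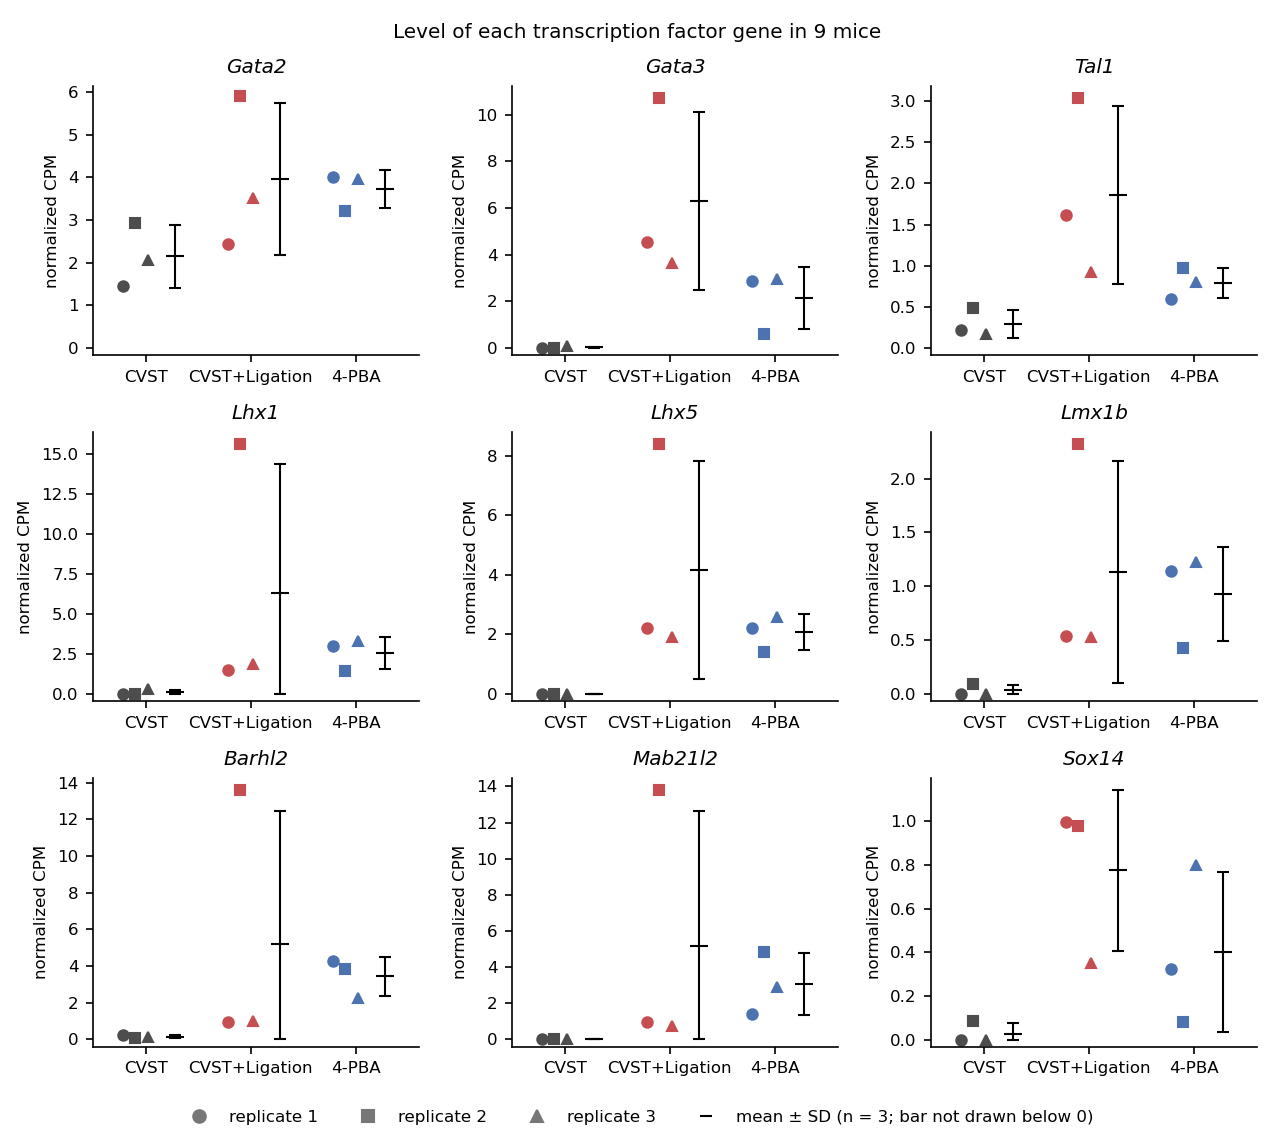
Normalized CPM (vertical axis, linear, its own scale for each gene) of the 9 transcription factor genes in each mouse of the 3 groups, with replicates 1, 2 and 3 as circles, squares and triangles and the mean ± SD (n = 3) in black. Bars are not drawn below 0. The CVST mice sit at or near 0 for all genes but Gata2 and Tal1, and the square of the CVST+Ligation group is the highest point of 8 of the 9 panels, for example 13.8 CPM for Mab21l2.

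Between genes, levels are comparable only per length, in FPKM (fragments scaled by gene length and library size). In the CVST group Gata2, at 1.46 ± 0.533 (SD, n = 3) FPKM, stood above all other members, and Tal1 followed at 0.287 ± 0.181 with no overlap of the 2 ranges. Below it came Barhl2, Lhx1, Sox14, Lmx1b, Gata3, Lhx5 and Mab21l2, from 0.127 down to 0 FPKM, and the ranges of neighbours overlapped. In the CVST+Ligation group the order of the mean FPKM was Lhx1, Mab21l2, Gata3, Barhl2, Lhx5, Gata2, Tal1, Sox14 and Lmx1b, from 5.12 ± 6.63 to 0.937 ± 0.879 (SD, n = 3). In the 4-PBA group it was Barhl2, Mab21l2, Gata2, Lhx1, Lhx5, Gata3, Tal1, Lmx1b and Sox14, from 3.06 ± 0.908 to 0.58 ± 0.533 (SD, n = 3). In both ligated groups every pair of neighbours overlapped, while genes further apart in the order could be separate. In the CVST+Ligation group Gata3 (2.67 to 8.31 FPKM) lay above Sox14 (0.476 to 1.4) and Lmx1b (0.42 to 1.95) in every mouse, and in the 4-PBA group the lowest value of Barhl2, Mab21l2, Gata2, Lhx1 and Lhx5 was 1.11 FPKM, above the highest of Tal1, 0.986. With the second ligated mouse left out, the order of the mean FPKM in the CVST+Ligation group was Gata3, Gata2, Lhx5, Lhx1, Tal1, Sox14, Barhl2, Mab21l2 and Lmx1b, from 3.05 to 0.43, so that Lhx1, Mab21l2 and Barhl2 lost their high ranks.

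From the CVST to the CVST+Ligation group, the contrast that chose the members, all 9 were higher in the mean, and 8 of the 9 did not overlap. Of all 14746 genes tested, 6.6% were higher without overlap, and nothing is read from this count for the members. Gata3 had 401 counts in the ligated libraries against 1 in the CVST libraries, a depth-corrected ratio of 390 with an exact 95% counting interval of 69.6 to 15400. Lmx1b stood at 70 against 2 counts, a ratio of 34 (9.07 to 286), and Sox14 at 51 against 2, a ratio of 24.8 (6.52 to 210). These intervals cover counting error only and not the spread between mice. Against the floor of 3 counts in each library, Lhx5 was at least 29.5-fold higher in the group mean and Mab21l2 at least 36.6-fold higher. The mean of Lhx1 was 69.5-fold higher, that of Barhl2 34.5-fold, that of Tal1 6.46-fold and that of Gata2 1.85-fold. Without the highest ligated library the bound for Lhx5 was 14.5-fold, that for Mab21l2 6.02-fold, and the folds were 18.2 for Lhx1, 6.51 for Barhl2, 4.41 for Tal1 and 1.39 for Gata2. On the same scale of group means, Gata3 went from 349-fold to 227-fold, Lmx1b from 38.1-fold to 18-fold and Sox14 from 26.2-fold to 22.5-fold. With replicate 2 of the CVST+Ligation group left out, an alternative chosen after seeing the data, 8 of 9 members still did not overlap, among 11.9% of all genes.

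The sum of the 9 genes shows the same by library. It was 1.91, 3.68 and 2.66 CPM in the CVST group, most of it from Gata2, 15.7, 74.4 and 14.5 CPM in the CVST+Ligation group and 19.8, 16.7 and 20.7 CPM in the 4-PBA group. Replicate 2 of the ligated group was the highest of all 9 libraries in 8 of the 9 members, with Sox14 the exception. The other 5 ligated libraries, with or without 4-PBA, lay between 14.5 and 20.7 CPM.

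The 4-PBA group was compared with the CVST group next. It uses the same CVST libraries as the contrast that chose the members, so the low values on that side were fixed by the choice. The 4-PBA mice took no part in that contrast, but the members were chosen with earlier results of these data known. All 9 members were higher in the mean, with a median log2 fold change of 4.67 against -0.01 over all genes tested, and 8 of 9 did not overlap between the groups, Sox14 being the exception. Over all genes tested 12.2% were higher without overlap. By edgeR's quasi-likelihood test 8 of the 9 had an unadjusted p below 0.05 and were higher, Gata2 being the exception, against 8.07% of all genes. After Benjamini-Hochberg adjustment over the 14746 genes, 0 members passed 0.05, while 18 genes did (0.122%). With DESeq2, which gave no adjusted p for Lhx1 and Barhl2, 4 of the 7 other members passed (Gata3, Lhx5, Lmx1b and Mab21l2), among 855 genes (5.82% of those with an adjusted p). All 9 members passed the filter on low counts, which those at the floor in the CVST group could do only through the groups where they are high.

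Closest to the threshold were Gata3 and Lhx5, each with an adjusted p of 0.0518 by edgeR. Gata3 had 144 counts in the 4-PBA libraries against 1, a ratio of 136 with an exact 95% counting interval of 24 to 5400, and a fitted difference of 6.64 on the log2 scale (standard error 1.1). Lhx5 was at least 14.6-fold higher in the group mean against the floor. Mab21l2 was at least 21.6-fold higher (adjusted p = 0.124 by edgeR). Lmx1b stood at 63 against 2 counts, a ratio of 29.7 (7.88 to 250), with an adjusted p of 0.104 by edgeR. Lhx1 had a mean of 2.55 ± 1.02 CPM in the 4-PBA group and 0.0904 ± 0.157 in the CVST group (SD, n = 3; edgeR adjusted p = 0.134). The CVST value rests on the 5 counts of replicate 3, and without that mouse the fitted log2 difference went from 4.89 to 8.85. Fitted values against such low groups moved likewise for Gata3, to 8.59 without CVST replicate 3, and for Lmx1b and Sox14, to 7.37 and 6.21 without CVST replicate 2. Sox14 was at 2.47 without 4-PBA replicate 3. Barhl2, at 3.45 ± 1.07 against 0.151 ± 0.0908 CPM (SD, n = 3), differed by 4.44 on the log2 scale (standard error 1.16, edgeR adjusted p = 0.122). The smaller differences were those of Sox14, at 29 against 2 counts (edgeR adjusted p = 0.208), Tal1, with a log2 fold change of 1.43 (standard error 0.61, edgeR adjusted p = 0.304), and Gata2, with 0.79 (standard error 0.39, edgeR adjusted p = 0.372).

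These adjusted p-values moved with a library that is in neither group, and the cause was not tested. Without replicate 2 of the CVST+Ligation group, 6 members passed 0.05 after adjustment by edgeR, among 541 genes (3.62%). The adjusted p was then 0.00818 for Barhl2, 0.00955 for Lhx5, 0.0141 for Mab21l2, 0.0179 for Gata3, 0.0323 for Lhx1 and 0.0364 for Lmx1b. The log2 fold change of Barhl2 was 4.45 there and 4.44 with all libraries. Gata2, Tal1 and Sox14 did not pass, at 0.24, 0.211 and 0.173. In a model of only the 4-PBA and CVST groups, 4 members passed (Barhl2, Gata3, Lhx5 and Mab21l2) of 7 that could be tested, among 234 genes (1.61%). In both fits the low CVST values were again fixed by the choice of the members. Those at the floor in the CVST group passed the filter only through groups where they are high, so nothing is read from these counts for the members.

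Between the 4-PBA and the CVST+Ligation group, the question is whether the levels differ when 4-PBA is added to thrombosis and ligation. All 9 members were lower in the 4-PBA mean, with a median log2 fold change of -0.91 against -0.02 over all genes tested, and the ligated libraries also took part in choosing the members. Gata3 had the most negative fitted value, with a mean of 2.13 ± 1.34 CPM against 6.3 ± 3.84 (SD, n = 3) and a log2 fold change of -1.56 (standard error 0.65, unadjusted p = 0.0382 and adjusted p = 1.0 by edgeR). It was the 1 member with an unadjusted p below 0.05, where 1.42% of all genes were lower at this level, and the 1 member without overlap, where 4.21% of all genes were lower without overlap. Its partner Tal1 stood at -1.22 on that scale (standard error 0.56, edgeR adjusted p = 1.0), with means of 0.788 ± 0.186 and 1.86 ± 1.08 CPM (SD, n = 3). The other members had log2 fold changes of -0.09 (Gata2), -0.27 (Lmx1b), -0.59 (Barhl2), -0.75 (Mab21l2), -0.91 (Sox14), -1.0 (Lhx5) and -1.3 (Lhx1), with standard errors of 0.39 to 1.08. None of the 14746 genes passed after adjustment (0.0%) in edgeR's test, which gave 476 genes at an unadjusted p below 0.05, and DESeq2 gave 22 genes after adjustment and 0 members.

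The direction of this comparison depended on single libraries for 6 of the 9 members. Without replicate 2 of the CVST+Ligation group, 6 of the 9 members were higher in the 4-PBA mean. The value for Barhl2 was then 1.82 on the log2 scale (standard error 0.5, edgeR adjusted p = 0.344) and for Mab21l2 1.85 (standard error 0.64, edgeR adjusted p = 0.435), and these 2 did not overlap, being higher in every 4-PBA mouse, as were 15.7% of all genes. Gata3 did not overlap either and was lower in every 4-PBA mouse, as were 16.7% of all genes. Lmx1b, Lhx1, Gata2 and Lhx5 had 0.8, 0.64, 0.34 and 0.03. Gata3, Tal1 and Sox14 kept the lower 4-PBA mean, at -0.93, -0.67 and -0.7, and 0 members passed the adjusted threshold in either direction. Gata2 and Lmx1b were also higher with 4-PBA when replicate 2 of the 4-PBA group was left out.

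**Figure D2:**
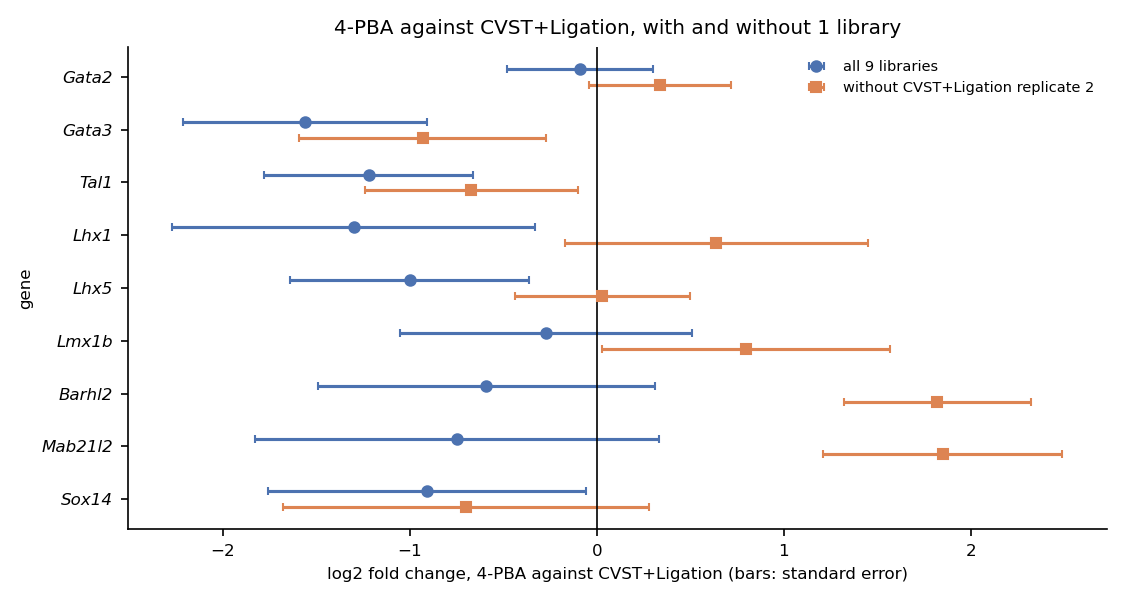
Log2 fold change of each gene between the 4-PBA and the CVST+Ligation group (horizontal axis, bars showing the standard error of the edgeR model), with all 9 libraries (blue circles) and with the second CVST+Ligation mouse left out (orange squares). All blue points lie left of 0, from -1.56 for Gata3 to -0.09 for Gata2, and 6 orange points lie right of it, up to 1.85 for Mab21l2.

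Over the 9 libraries the members moved together in level. The 36 pairs had a Pearson r of log2 CPM between 0.67 and 0.97 (median 0.86), highest for Gata3 with Lhx5. The groups themselves and the choice of the members give such values. After subtraction of the group means, r was 0.04 to 0.89 (median 0.62, 36 of 36 above 0), highest for Lhx5 with Lmx1b and lowest for Barhl2 with Sox14. These values rest in part on replicate 2 of the ligated group, which is high in 8 of the members. Over the 8 other libraries, r of the levels was 0.56 to 0.96 (median 0.83), while r of the deviations was -0.73 to 0.93 (median 0.14), with 19 of 36 pairs above 0. Gata3 with Lhx5 was then the highest pair (0.93) and Gata3 with Mab21l2 the lowest (-0.73).

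**Figure D3:**
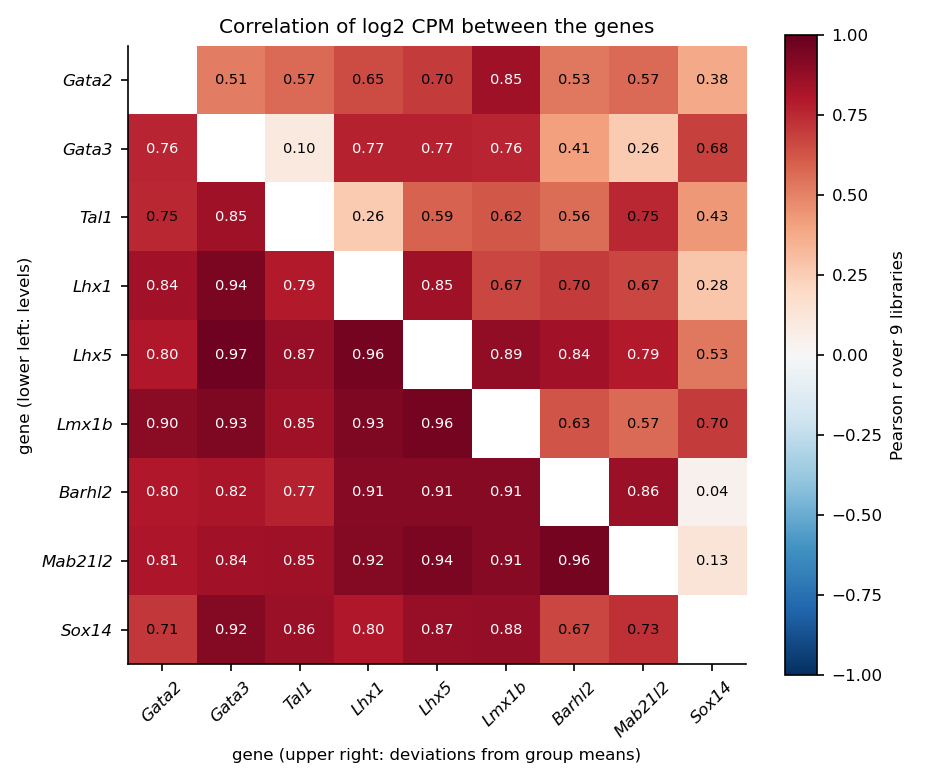
Pearson r of log2 CPM over the 9 libraries for each pair of genes, with levels below the diagonal and deviations from the 3 group means above it, on a color scale from -1 to 1. Levels correlate at 0.67 or more in every pair, whereas the deviations range from 0.04 for Barhl2 with Sox14 to 0.89 for Lhx5 with Lmx1b.

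Among the other genes tested, En1, a homeobox gene of the midbrain and anterior hindbrain, was the closest in level to both Gata3 (r = 0.962) and Lhx5 (r = 0.988). It was at 0.085, 0 and 0 CPM in the CVST group, 2.27, 8.65 and 2.29 after ligation and 2.65, 1.43 and 1.71 in the 4-PBA group. Closest to Lhx1 were the homeobox genes Irx1 (r = 0.987) and Uncx (0.981) and Mab21l1 (0.977), closest to Mab21l2 were Smpx (0.986), Ebf2 (0.975) and Ebf3 (0.969), and closest to Lmx1b were Aldh1a1 (0.978), Tcf7l2 (0.967) and Shox2 (0.964). For Barhl2, Tal1, Sox14 and Gata2 the closest were Ttc33, Rsrc1, Nhsl1 and Mmp9, with r of 0.96 to 0.983, and Ttc33 and Rsrc1 covered narrow ranges of 51.4 to 71.3 and 28.7 to 45.2 CPM. In deviations from the group means, Ddo (r = 0.999), Pip5kl1 (0.987) and Tph2 (0.979) were closest to Lhx5. Tph2, which encodes the enzyme of serotonin synthesis in neurons, had 135 CPM in replicate 2 of the ligated group and at most 1.98 in any other library. For Gata2, Gata3, Tal1 and Lhx1 the closest were Coq9, Nfxl1, Itpripl1 and Dnah6, with r of 0.984 to 0.99. For Lmx1b, Barhl2, Mab21l2 and Sox14 they were Oxnad1, Slc25a25, Trim16 and Kif14, with r of 0.985 to 0.988. All these r are over 9 libraries, replicate 2 of the ligated group included, and were picked as the highest of all genes tested.

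Genes related to the members by pathway were read from lists. Of the partners and relatives of GATA and TAL1, 18 were tested. Of these, 2 were higher and 2 lower at an unadjusted p below 0.05 (edgeR) in the CVST+Ligation against the CVST group, where the shares of all genes were 5.47% and 4.18%, and 0 passed after adjustment. In the 4-PBA against the CVST group 1 was higher and 5 lower, where 8.07% of all genes were higher and 7.33% lower, and against the CVST+Ligation group 0 were higher and 2 lower, where 1.81% of all genes were higher and 1.42% lower. The median log2 fold changes of the list were -0.21, -0.15 and -0.25. Without replicate 2 of the ligated group the counts were 1 higher and 3 lower, 1 and 6, and 1 and 4, with 2 past adjustment in the second. The shares of all genes given above apply also to the lists below with all libraries. Shares of all genes at an unadjusted p below 0.05 in the fit without replicate 2 are not given here, so list counts from that fit have no background beside them. Zfpm2, a cofactor of GATA proteins, was at 27 ± 0.818, 45.6 ± 8.48 and 30.2 ± 3.54 CPM (SD, n = 3) in the CVST, CVST+Ligation and 4-PBA groups. Its relative Zfpm1 was at 64.4 ± 26.7, 32.1 ± 7.33 and 25.8 ± 4.14 CPM (SD, n = 3). The adaptor genes Ldb1 and Lmo2, which bridge such complexes, were at 84.6 to 135 and 11.4 to 17.3 CPM over all libraries, far from the floor.

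Of the other LIM homeobox genes, 6 were tested. Of these, 2 were higher and 0 lower in the CVST+Ligation against the CVST group at an unadjusted p below 0.05 (edgeR), 3 and 0 in the 4-PBA against the CVST group, and 3 and 0 in the 4-PBA against the CVST+Ligation group, with 0 past adjustment in each. When the second ligated mouse was left out these were 2 and 0, 3 and 1, and 2 and 1, with 1 past adjustment in the second. Lmx1a, the paralog of Lmx1b in the dopamine lineage, had 0 counts in every CVST library, 4, 10 and 19 after ligation and 28, 29 and 47 in the 4-PBA group. Here all 4-PBA mice were above all ligated mice, the reverse of Gata3. Among paralogs of the other members, 2 of 6 were higher in each of the comparisons with the CVST group and 0 differed between the ligated groups at that level, and without replicate 2 of the ligated group these counts were equal. None passed after adjustment by edgeR with all libraries, and 2 did in the 4-PBA against the CVST group without that library. They were Mab21l1 and Barhl1, the relatives of Mab21l2 and Barhl2. Barhl1 had 0 counts in each CVST library, 6, 214 and 4 after ligation and 9, 16 and 21 with 4-PBA. Mab21l1 had 9, 13 and 29 counts, then 74, 999 and 124, then 163, 129 and 156. Replicate 2 of the ligated group was far above the rest for both, as for their relatives.

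Many of the other midbrain transcription factors were higher too. Of 24 tested, 15 were higher and 0 lower in the CVST+Ligation against the CVST group at an unadjusted p below 0.05 (edgeR), where 5.47% of all genes were higher and 4.18% lower. Their median log2 fold change was 3.51, with 0 past adjustment. With the second ligated mouse left out, 11 of 25 were higher and 1 lower, and the median was 0.96. The summed level of the list, which its abundant genes dominate, was 315 to 346 CPM in the CVST group, 266, 572 and 298 after ligation and 306 to 320 with 4-PBA. In the 4-PBA against the CVST group 13 were higher and 1 lower, with a median of 2.39, and without that library 18 of 25 were higher and 0 lower, 9 of them past adjustment. Foxa2, a factor of dopamine neurons and the floor plate, had 0 counts in the CVST libraries, 15, 14 and 13 after ligation and 9, 19 and 31 with 4-PBA, with no library standing apart. Of the hindbrain and spinal cord list 1 of 28 genes, Gbx2, passed the filter on low counts. Its level was 0.0998 ± 0.136, 0.842 ± 0.539 and 2.86 ± 1.42 CPM (SD, n = 3) in the CVST, CVST+Ligation and 4-PBA groups. The summed level of that list was 0.325 to 1.4 CPM in the CVST group, 1.86, 42.1 and 2.99 in the ligated mice and 3.68 to 10.2 with 4-PBA.

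Diencephalic factors numbered 4 higher and 2 lower of 20 tested in the CVST+Ligation against the CVST group, 8 and 1 in the 4-PBA against the CVST group and 5 and 0 in the 4-PBA against the CVST+Ligation group at an unadjusted p below 0.05 (edgeR). In the second of these, Tcf7l2, a factor of thalamic neurons, passed after adjustment (edgeR adjusted p = 0.0318). In the fit lacking that mouse 22 could be tested, and the counts were 4 and 1, 12 and 1 with 7 past adjustment, and 6 and 1. Tcf7l2 was at 1.9 to 3.36 CPM in the CVST mice, 31.1 to 74.5 in the ligated mice and 23.5 to 91.3 with 4-PBA. Of the 13 genes of inhibitory and excitatory transmission, 4 were higher and 0 lower, 4 and 1, and 0 and 1 in the 3 comparisons in this order, with 0 past adjustment in each, and 2 and 0, 5 and 1, and 4 and 1 without that library, with 1, 4 and 0 past adjustment. Slc17a6, the vesicular glutamate transporter of subcortical neurons, was at 14.4 ± 2.81, 74.9 ± 51.9 and 90.1 ± 1.59 CPM (SD, n = 3), with 37, 134 and 53.7 CPM in the ligated mice. Slc17a7, the transporter of cortical neurons, was at 1720 ± 279, 1090 ± 578 and 606 ± 111 CPM (SD, n = 3), with 1430, 419 and 1410 CPM in the ligated mice.

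The summed markers of midbrain dopamine neurons and of thalamus were, like the members, higher in both ligated groups than in the CVST group. Of 18 genes of midbrain dopamine neurons 14 were higher and 1 lower in the CVST+Ligation against the CVST group and 14 and 0 in the 4-PBA against the CVST group at an unadjusted p below 0.05 (edgeR). The 3 genes that passed after adjustment in the former, of all genes tested (0.0203%), were Slc18a2, Ddc and Chrna6 of this list. In the latter 5 of the list passed, these 3 with Th and Slc6a3 (edgeR adjusted p of 0.0048 to 0.0305). Without replicate 2 of the ligated group the counts were 14 and 1, and 15 and 0, with 5 and 12 past adjustment. The summed level of the list was 287 to 387 CPM in the CVST mice, 593 to 942 in the ligated mice and 682 to 853 with 4-PBA, without overlap between CVST and the rest. Of its genes Pitx3, Lmx1a and Foxa2 were at 0 in all CVST libraries. The dopamine transporter gene Slc6a3 and Th did not follow the members in replicate 2 of the ligated group, where Slc6a3 had 5.61 CPM against 66.2 and 44.7 in the other ligated mice and Th 20.5 against 49 and 46. Of 15 thalamus genes 9 were higher and 1 lower, and 11 and 0, in the same comparisons (8 and 1, and 11 and 0 without that library). After adjustment 0 and 1 of them passed, and 1 and 9 without that library. Their sums were 401 to 432, 511 to 993 and 731 to 1130 CPM.

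The summed cerebellum and serotonin lists were high in that 1 library. Of 16 cerebellum genes 13 were higher in the CVST+Ligation against the CVST group at an unadjusted p below 0.05 (edgeR), and 6 without it. Summed CPM of the cerebellum list was 674 to 1350 for CVST, 890, 4230 and 839 for CVST+Ligation and 577 to 764 for 4-PBA, and each of its 16 tested genes was highest of the ligated mice in replicate 2. Its defining gene Gabra6, of cerebellar granule cells, had 4101 counts there, 119 in replicate 3 and 0 in the other 7 libraries. For the serotonin list it was 44.7, 325 and 43.3 after ligation alone and 32.3 to 54.3 in the 6 other mice, and Fev, the factor that defines serotonin neurons, had 78 counts in replicate 2 and at most 2 elsewhere. Of 6 serotonin genes tested 2 were higher and 0 lower in the CVST+Ligation against the CVST group, 0 and 0 in the 4-PBA against the CVST group and 1 and 2 in the 4-PBA against the CVST+Ligation group at an unadjusted p below 0.05 (edgeR), with 0 past adjustment (1 and 0, 1 and 0, and 2 and 0 without replicate 2). The serotonin receptor gene Htr1a, with the smallest p of the first, was at 3.44 to 6.51 CPM for CVST and at 11.9, 11.9 and 10.1 CPM for CVST+Ligation, so that all 3 ligated mice were above every CVST mouse. Lmx1b, a factor of the same neurons, was highest in this library too. In the 5 other ligated libraries Lmx1b had 10 to 32 counts and Fev 0 to 2, and the part of serotonin neurons in the level of Lmx1b was not tested. Hypothalamus genes summed to 321 to 613 CPM in the CVST mice, 159 to 451 in the ligated mice, lowest in replicate 2, and 580 to 863 with 4-PBA, where 9 of 14 were higher and 1 lower than in the CVST group, 2 of them past adjustment by edgeR (10 of 15 higher, 1 lower and 7 past adjustment without replicate 2 of the ligated group).

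Among forebrain markers, those of cortex and striatum included genes that were lower than in the CVST group. The list of cortical excitatory neurons summed to 2810 to 2960 CPM in the CVST mice, 2280, 947 and 2220 in the ligated mice and 1070 to 1340 with 4-PBA, and of its 16 genes 6 and 8 were lower in the comparisons with the CVST group and 0 higher (3 and 10 without replicate 2 of the ligated group). After adjustment 0 passed in either, and 0 and 6 without that library. The striatum list, with 12 of 16 genes lower in the CVST+Ligation against the CVST group (11 without that library), and 4 lower and 2 higher in the 4-PBA against the CVST group, summed to 1190 to 2330, 348 to 652 and 362 to 1580 CPM. Of its genes 0 passed adjustment in these comparisons, and 0 and 1 without that library. The hippocampus list summed to 374 to 913, 557 to 979 and 466 to 762 CPM and the choroid plexus list to 1140 to 1310, 351 to 1220 and 863 to 4410 CPM, which overlap between the groups. Of 12 choroid plexus genes 5 were higher and 0 lower in the 4-PBA against the CVST group and 7 and 0 in the 4-PBA against the CVST+Ligation group at an unadjusted p below 0.05 (edgeR), with 0 past adjustment. Without replicate 2 of the ligated group these were 5 and 0, and 7 and 0, with 1 and 0 past adjustment. The part of these regional differences, and of how much of each region a sample held, in the levels of the members was not tested.

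**Figure D4:**
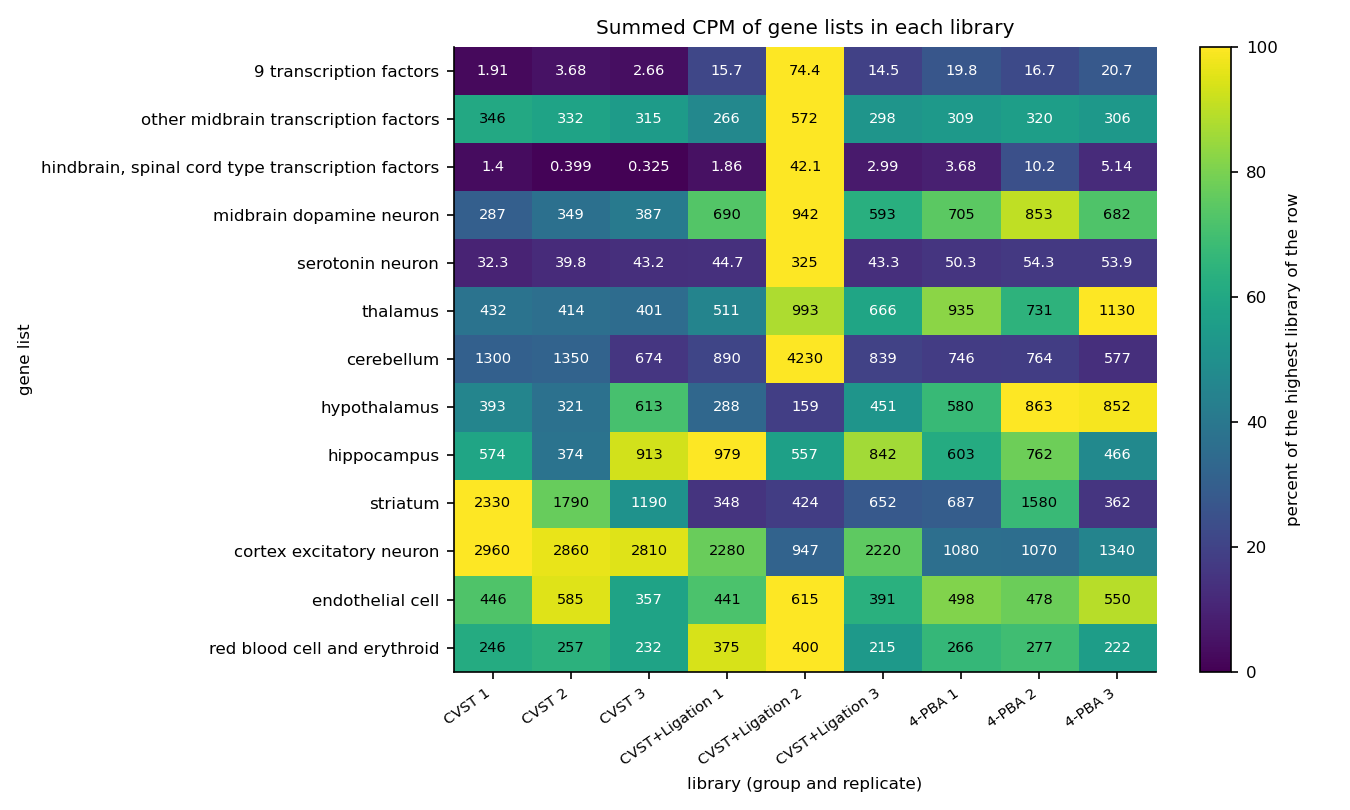
Summed CPM of the 9 transcription factor genes and of lists of related factors and region or cell type markers (rows) in each library (columns), printed in each cell and colored as percent of the highest library in the row. The rows of the 9 genes and of midbrain dopamine neurons are low in the CVST columns, the cortex row is high there at 2810 to 2960 CPM, and replicate 2 of the CVST+Ligation group holds the highest cerebellum (4230 CPM), serotonin (325 CPM) and hindbrain (42.1 CPM) values.

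Gata2, Gata3 and Tal1 are also made outside neurons, Gata2 and Tal1 in blood precursors, mast cells and endothelium. Erythroid genes summed to 232 to 257 CPM in the CVST mice, 375, 400 and 215 in the ligated mice and 222 to 277 with 4-PBA, and of 7 tested 2 were higher and 1 lower in the CVST+Ligation against the CVST group (edgeR, unadjusted p below 0.05), and 0 and 1 without replicate 2 of the ligated group. Gata1, which defines the erythroid lineage, had 0 counts in 8 libraries and 2 in replicate 2 of the ligated group. The mast cell list summed to 32.5 to 55.2, 68.9 to 107 and 43.6 to 63.2 CPM, mostly from Kit, which neurons also express, while Fcer1a was at 0 in every library and Cpa3 at no more than 11 counts. Of the list 2 of 11 genes could be tested (edgeR, unadjusted p below 0.05). Kit was higher in the CVST+Ligation group, at 87.7 ± 18.5 CPM against 41.6 ± 11.3 in the CVST group (SD, n = 3), and lower with 4-PBA than after ligation alone, at 42.7 ± 15.8. Hdc, the enzyme of histamine synthesis, which hypothalamic neurons also make, was higher with 4-PBA, at 11.7 ± 7.38 CPM against 2.23 ± 0.0267 in the CVST group and 2.18 ± 1.71 after ligation (SD, n = 3). The mast cell protease genes Tpsb2 and Mcpt4 had 0 counts in every CVST library, 8, 0 and 2 and 4, 0 and 10 after ligation, and 10, 16 and 0 and 10, 14 and 0 with 4-PBA. Both were at 0 in replicate 2 of the ligated group, where Kit, at 103 CPM, and Hdc, at 4.12 CPM, were the highest of the ligated mice. With that mouse left out, 4 genes could be tested, and 2 were higher and 0 lower in the CVST+Ligation and 3 and 0 in the 4-PBA group against the CVST group, with 0 past adjustment. Endothelial genes summed to 357 to 585, 391 to 615 and 478 to 550 CPM, and 0 of 14 differed in any comparison at that level by edgeR. With the second ligated mouse left out, 1 was lower in the CVST+Ligation against the CVST group and 1 higher in the 4-PBA against the CVST+Ligation group. In replicate 2 of the ligated group, 14 of these 14 were the highest of the ligated mice. Lyl1, the relative of Tal1 in blood and endothelium, was at 1.68 to 2.57 CPM in the CVST mice, 1.4 to 2.11 in the ligated mice and 2.06 to 2.25 with 4-PBA, which overlap between the groups. The part of blood, mast and vessel cells in the levels of Gata2 and Tal1, and of any cells other than neurons in the level of Gata3, was not tested.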

How the data were processed

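Brain RNA of 9 mice was sequenced as paired reads of 150 bases. According to the methods the authors filtered reads with fastp, aligned them with HISAT2, assembled transcripts with StringTie and quantified them with RSEM. The submitters' processing notes name the same tools, and mm10 and GRCm38 as builds. The methods name an orientation mode for the HISAT2 alignment. Versions, annotation and the program behind the deposited counts are not given in the sources used here, nor is the handling of strand in counting. The authors deposited whole-number read counts for 20731 genes, without normalization. The authors also deposited expression values that the methods call TPM and that are FPKM, because each equals the count divided by the library total and 1 length per gene. For 7 of the 9 members this length is that of a GENCODE M21 coding sequence.

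Counts were analysed with edgeR 4.0.16 in R 4.3.3. Library sizes were scaled by TMM, filterByExpr kept 14746 genes, and all 3 groups entered 1 quasi-likelihood fit without covariates, with Benjamini-Hochberg adjustment over all genes. Mice of a group are separate animals, and no pair of libraries of a group agreed within sampling noise (chi-square at least 22.3 times its degrees of freedom). The floor was 3 counts per library. Against a group with 0 counts the fold is a lower bound, and against a group with 1 to 3 counts it is a ratio with an exact Clopper-Pearson interval. The fit was also run on simulated data, and the outcome is not given here. The members and all lists were chosen with earlier results of these data known. Named in the text are all members, from each list mainly the genes with the smallest p per comparison and those past adjustment, and per member the genes with the highest r. The result of 1 gene that this rule names is not reported here. Per-library values of Ldb1, Lmo2, Lyl1, Th, Slc6a3, Gabra6, Fev, Gata1, Kit, Cpa3, Fcer1a, Tpsb2, Mcpt4 and the Hox genes were added after values were seen. Alternatives were other scalings, filters and models, DESeq2 1.42.0, limma 3.58.1 on FPKM with pseudocounts of 1 and 0.1 before the log2, which understates changes of low genes, a replicate block, and each library left out. Counts of list genes without replicate 2 of the CVST+Ligation group, overlaps with a library left out, and the order and correlations of the members without that library, were added after seeing the data.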

Additional observations from a re-analysis of the deposited data

How the results depend on the processing

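The groups' order, with all 9 members lowest in the CVST mean and highest in the CVST+Ligation mean, was the same with DESeq2's size factors, total counts and FPKM, and the median log2 fold change of all genes stayed between -0.02 and 0.06 under TMM, size factors and total counts. With at least 10 counts in every library only Gata2 could be tested, so that the members higher were 1 in each comparison with the CVST group. Genes past adjustment in the CVST+Ligation against the CVST group numbered 3, and 264 with DESeq2, 0 with at least 10 counts, 1 in a model of the 2 groups, 11 with limma at a pseudocount of 0.1 and 0 to 7 with 1 library left out. In the 4-PBA against the CVST group, 18 genes became 855 with DESeq2, 112 with all genes of at least 1 count, 6 with at least 10 counts, 234 in a model of the 2 groups, 56 and 69 with limma at pseudocounts of 1 and 0.1, and 2 to 541 with 1 library left out. Members past adjustment there numbered 0, and 4 with DESeq2 (no adjusted p for Lhx1 and Barhl2), 2 with all genes of at least 1 count, 4 in a model of the 2 groups, 1 with limma at a pseudocount of 0.1 and 0 to 6 with 1 library left out, the 6 without replicate 2 of the CVST+Ligation group. In the 4-PBA against the CVST+Ligation group, 0 genes became 22 with DESeq2, 2 with limma at a pseudocount of 1 and 0 to 2 with 1 library left out. Of the 9 members 0 were higher, and 3 with either limma fit and 0 to 6 with 1 library left out. Log2 fold changes that turned there were 0.0043 for Gata2, 0.17 for Barhl2 and 0.043 for Mab21l2 with limma at a pseudocount of 1, and 0.027, 0.47 and 0.31 at 0.1. With 1 library left out they ranged from -0.33 to 0.34 for Gata2, -1.75 to 0.64 for Lhx1, -1.35 to 0.032 for Lhx5, -0.61 to 0.80 for Lmx1b, -1.08 to 1.82 for Barhl2 and -1.26 to 1.85 for Mab21l2, each highest without replicate 2 of the ligated group, and Gata2 and Lmx1b also turned without replicate 2 of the 4-PBA group. Of genes with an unadjusted p below 0.05, 52.4% were higher in the 4-PBA than in the CVST group, against 65.1% with total counts and 66.5% and 67.5% with limma, and 56.1% higher than in the CVST+Ligation group, against 66.1% with total counts and 74.5% and 72.7% with limma. The cause of these changes was not tested.

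Deviations from the group means correlated with r of -0.05 to 0.32 over 9 pairs of same-numbered libraries, and of -0.36 to 0.13 over 18 other-numbered pairs. These overlapping ranges do not settle whether replicate numbers mark pairs. The main fit took the libraries as unpaired. With the replicate block 1 gene passed adjustment in the CVST+Ligation against the CVST group, 25 in the 4-PBA against the CVST group and 1 in the 4-PBA against the CVST+Ligation group, 4 members were higher in the last, with log2 fold changes of 0.024 (Gata2), 0.13 (Lmx1b), 0.20 (Barhl2) and 0.25 (Mab21l2), and no adjusted call of a member changed. With 3 mice a group and members near the floor in the CVST group, a fold there is a bound or a wide ratio, and a difference between the ligated groups of the size of the standard errors was not detectable.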
